A study of Homo sapiens with 12 samples.

Results

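A set of 60 protein-coding genes from the long arm of chromosome 7, between TSC22D4 and PAXIP1, was followed across mRNA and ribosome footprints in human cells that lack GIGYF1 and GIGYF2. The genes form 60 of the 27011 genes in the count tables. They were selected on their lower mRNA and footprint levels in GIGYF1/2-null cells and on their place around the edited gene GIGYF1. Every value of these genes in GIGYF1/2-null cells is therefore a description. Counts of genes past a threshold are given for those cells beside the share over all genes, but with no p for a listed gene, and they are no evidence that the genes differ. In mRNA, 58 of the 60 lay below WT and BRAF and PODXL above it.

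The cells were HEK293T, an aneuploid human embryonic kidney line that carries the SV40 large T antigen. The 3 genotypes were GIGYF1/2-null, which lacks both GIGYF1 and GIGYF2, 4EHP-null, which lacks the cap-binding protein 4EHP encoded by EIF4E2, and the unedited wild type (WT). Each genotype had 2 libraries of RNA-seq (mRNA) and 2 of Ribo-seq, which sequences the mRNA fragments covered by ribosomes, 12 libraries in all. Cells were untreated and were plated on 15 cm dishes 24 h before harvest. The labels do not say whether a null line is 1 clone. They also do not say whether the 2 biological replicates of a genotype came from separate cultures or lines. A p-value here therefore sets a change against the spread between these libraries, and may not extend to other cultures or clones. In bulk RNA, fewer cells that express a gene and less RNA per cell cannot be told apart.

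4EHP binds the mRNA cap without starting translation, and GIGYF1 and GIGYF2 are large adaptor proteins that hold it on chosen mRNAs, which are then translated less and degraded. The genes followed here are not a pathway: they share a chromosome segment and have unrelated functions, among them a receptor tyrosine kinase, subunits of chromatin enzymes, coat and tethering proteins of the secretory pathway, mitochondrial enzymes and a nuclear pore scaffold. In a cell line, genes on the same segment share the copy number of that segment, and their mRNA levels often follow it. DNA copy number was not analysed here, and its part in the values below was not tested.

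Because the genes were chosen for moving together, the DNA just before their transcription starts is shown first for 3 of them that behaved differently. SND1 had the lowest footprint level relative to WT of the 60 genes, ORAI2 had lower mRNA but more footprints, and BRAF had the highest mRNA level relative to WT. Each line holds the 250 bases before a start in RefSeq, build GRCh38.p14, read in the direction of transcription. Capitals mark a GC box (GGGCGG, or CCGCCC on the other strand) or a CCAAT box (CCAAT, or ATTGG on the other strand).
SND1 (chr7:127651944-127652193, plus strand): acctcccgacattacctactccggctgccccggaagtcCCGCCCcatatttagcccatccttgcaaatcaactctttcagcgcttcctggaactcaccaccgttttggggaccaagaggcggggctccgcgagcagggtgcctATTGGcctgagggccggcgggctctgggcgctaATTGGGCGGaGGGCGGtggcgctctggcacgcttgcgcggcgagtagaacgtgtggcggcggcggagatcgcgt
ORAI2 (chr7:102433325-102433574, plus strand): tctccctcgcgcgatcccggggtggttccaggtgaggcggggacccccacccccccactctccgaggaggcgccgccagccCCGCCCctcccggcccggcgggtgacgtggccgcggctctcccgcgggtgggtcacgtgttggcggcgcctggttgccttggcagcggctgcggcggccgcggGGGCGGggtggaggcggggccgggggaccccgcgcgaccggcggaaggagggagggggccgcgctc
BRAF (chr7:140924269-140924518, minus strand): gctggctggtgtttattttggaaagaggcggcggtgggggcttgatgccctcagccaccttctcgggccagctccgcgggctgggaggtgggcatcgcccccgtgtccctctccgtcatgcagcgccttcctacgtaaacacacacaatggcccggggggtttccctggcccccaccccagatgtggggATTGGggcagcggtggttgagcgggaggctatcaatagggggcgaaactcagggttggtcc
The SND1 promoter held 3 GC boxes and 2 CCAAT boxes, and its second CCAAT box overlaps a GC box. The ORAI2 promoter held 2 GC boxes and no CCAAT box, at 81.2% G and C. The BRAF promoter held no GC box and 1 CCAAT box, and its window lies inside the gene's full RefSeq span, which begins further upstream. RefSeq gave 89 starts for 53 of the 60 genes. A GC box stood before 58.4% of those starts and before 53.7% of the 22199 protein-coding starts in the same table. For the CCAAT box the shares were 36% and 32.7%, and for the TATA box (TATAAA, or TTTATA on the other strand) 5.62% and 9%. The median G and C content was 64.8% before the listed genes' starts and 62% before all starts. Several starts of 1 gene share sequence, so the shares describe these letters in these windows only.

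Total counts per library ran between 26143118 and 38175701 in RNA-seq and between 6536493 and 10816080 in Ribo-seq, and levels are given as CPM, each gene's count relative to the TMM-scaled total of its library. Of the HEK293T genes checked, VIM lay between 449 and 795 CPM and KRT18 between 47.9 and 72.4 CPM across the 6 RNA-seq libraries. NEFM varied between 44.6 and 299.7 CPM and NEFL between 36.1 and 108.6 CPM, and KRT8 did not exceed 31.9 CPM. The kidney factor LHX1 was between 0.489 and 1.94 CPM, and PAX2 between 2.17 and 4.2 CPM. Among genes of other cell types, the leukocyte gene PTPRC had 0 counts. CD3E, ALB and PECAM1 did not exceed 0.102 CPM in any RNA-seq library, whereas DES lay between 0.102 and 0.412 CPM. EIF4E2 mRNA had 131 and 137 CPM in GIGYF1/2-null cells, against 50.98 and 46.7 CPM in 4EHP-null cells and 123 and 123 CPM in WT cells, so the libraries labelled 4EHP-null were low for it. GIGYF1 lies inside the chromosome segment, with 7 tested genes between it and TSC22D4. Its mRNA had 22.4 and 25.99 CPM in GIGYF1/2-null cells, against 38.9 and 39.3 CPM in 4EHP-null cells and 41.2 and 40.8 CPM in WT cells. Its footprints had 1.70 and 2.74 CPM in GIGYF1/2-null cells, against 9.45 and 12.3 CPM in 4EHP-null cells and 8.69 and 6.72 CPM in WT cells. The GIGYF1 log2 change against WT was -0.76 ± 0.11 in mRNA and -1.73 ± 0.29 in footprints (± SE, as in all log2 changes below). The segment was chosen around this gene for its lower level, so both values are a description. The segment's 172 measured genes outside the list, GIGYF1 among them, had a median mRNA change of -0.49. In GIGYF1 mRNA, the edit and the lower level of the segment cannot be told apart. GIGYF2 mRNA had 96.7 and 81.8 CPM in GIGYF1/2-null cells, against 67.97 and 68.8 CPM in 4EHP-null and 81.2 and 66.1 CPM in WT cells. Neither its mRNA (0.28 ± 0.11) nor its footprints (-0.21 ± 0.22) passed edgeR's quasi-likelihood test. A gene-level count does not show the edited part of a gene, so the GIGYF2 counts do not check that label.

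In mRNA, 51 of the 60 genes were called lower in GIGYF1/2-null than in WT cells and 0 were called higher, beside 6.75% of all 15637 tested genes called lower and 5.2% called higher. A gene was called at a Benjamini-Hochberg adjusted p under 0.05 in edgeR's quasi-likelihood test over all genes. At an unadjusted p under 0.05, 54 were lower and 0 higher, beside 13.4% and 11.9% of all tested genes. DESeq2 called 50 lower and limma-voom 51, and both called 0 higher. Since this contrast chose the genes, the count only describes the list. The median log2 change was -0.59, or 66.3% of the WT level, beside 0.01 for all tested genes. The middle of the list was narrow: 43 genes lay between -0.8 and -0.4, 7 lay below that and 10 above it. Both GIGYF1/2-null libraries lay below both WT libraries for 55 of the 60 genes, which holds for 26.2% of all tested genes. A log2 change below 0 was seen in 58 genes, beside 49.1% of all tested genes. The exceptions to the separation of the libraries were MOSPD3, NRCAM, ZYX, PODXL and BRAF.

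**Figure D1:**
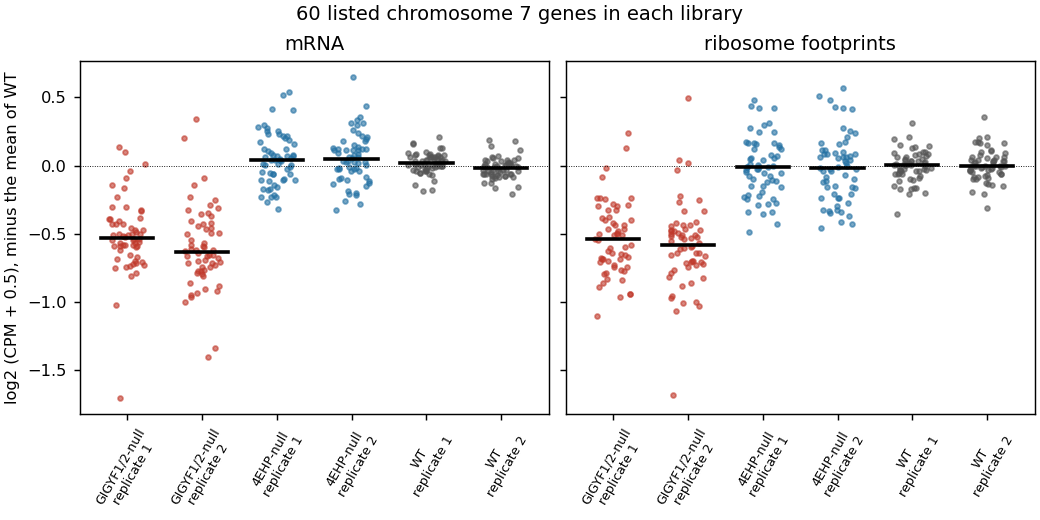
Log2 (CPM + 0.5) of each of the 60 genes in each library, minus the mean of the 2 WT libraries of the same assay, for mRNA (left) and ribosome footprints (right); each point is a gene and each bar the median of 60 genes. In mRNA the medians were -0.53 and -0.64 in the GIGYF1/2-null libraries, 0.04 and 0.05 in the 4EHP-null libraries, and 0.02 and -0.02 in the WT libraries.

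Library by library, the median of the 60 genes relative to the WT mean was -0.53 and -0.64 in GIGYF1/2-null mRNA, 0.04 and 0.05 in 4EHP-null mRNA, and 0.02 and -0.02 in WT mRNA. In footprints it was -0.54 and -0.58 in GIGYF1/2-null, -0.01 and -0.02 in 4EHP-null, and 0.01 and -0.01 in WT cells. The plot of the 60 genes by library shows that most genes were lower in both GIGYF1/2-null libraries, with a few genes lower still and a few near or above WT.

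The calls in each role group below stand beside 85% of the whole list and 6.75% of all tested genes called lower in mRNA. The list was chosen for low values, and differences between the groups were not tested. Among the 10 genes for transcription and chromatin, 7 were called lower in mRNA, with a median log2 change of -0.60. FOXP2, a forkhead transcription factor, had the lowest mRNA relative to WT of all 60 genes. Its mRNA had 3.51 and 4.68 CPM in GIGYF1/2-null cells, against 13.2 and 20.04 CPM in 4EHP-null cells and 12.9 and 12.3 CPM in WT cells, which is a log2 change of -1.62 ± 0.20 against WT. Its GIGYF1/2-null libraries lay far below the other 4. ING3, a subunit of the NuA4/TIP60 acetyltransferase complex, had 24.6 and 19.9 CPM in GIGYF1/2-null cells, against 33.4 and 33.1 CPM in 4EHP-null cells and 39.3 and 41.4 CPM in WT cells (-0.86 ± 0.12). The homeodomain factor CUX1 had 41.4 and 38.3 CPM in GIGYF1/2-null cells, against 72.3 and 76.1 CPM in 4EHP-null cells and 73.4 and 66.95 CPM in WT cells (-0.82 ± 0.09). For both, the 2 GIGYF1/2-null libraries lay below all 4 others. HBP1, an HMG-box repressor, changed by -0.78 ± 0.16. TRIM24, a bromodomain cofactor of nuclear receptors, changed by -0.60 ± 0.12, and LRWD1, which binds the origin recognition complex, by -0.59 ± 0.11. PAXIP1, a BRCT-domain partner of histone H3 lysine methyltransferases, stood at the far end of the segment and changed by -0.40 ± 0.09. EZH2, the methyltransferase of Polycomb repressive complex 2, had 65.2 and 58.8 CPM in GIGYF1/2-null cells, against 76.6 and 79.5 CPM in 4EHP-null cells and 72.8 and 73.4 CPM in WT cells. Its change of -0.24 ± 0.08 was not called, although its 2 GIGYF1/2-null libraries were the lowest of the 6. NRF1, a factor of nuclear genes for mitochondria (-0.28 ± 0.11), and TSC22D4, a leucine zipper regulator and the first gene of the segment (-0.19 ± 0.10), were not called either.

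Among the 9 receptor, signalling and channel genes, 8 were called lower, with a median of -0.60. MET, the receptor of hepatocyte growth factor, had 29.8 and 25.5 CPM in GIGYF1/2-null cells, against 62.1 and 62.1 CPM in 4EHP-null cells and 53.04 and 47.9 CPM in WT cells, a log2 change of -0.87 ± 0.11 in mRNA. DOCK4, an activator of small GTPases, changed by -0.73 ± 0.14. EPHB4, a receptor of ephrin ligands, had 45.9 and 52.7 CPM in GIGYF1/2-null cells, against 71.3 and 73.5 CPM in 4EHP-null cells and 67.2 and 82.4 CPM in WT cells (-0.60 ± 0.11). The HIPK2 gene, for a nuclear kinase, had 85.8 and 82.7 CPM in GIGYF1/2-null cells, against 122 and 119.7 CPM in 4EHP-null cells and 133 and 122 CPM in WT cells (-0.60 ± 0.08). ORAI2, a pore subunit of store-operated calcium channels, had 30.8 and 35.9 CPM in GIGYF1/2-null cells, against 59.9 and 59.2 CPM in 4EHP-null cells and 51.01 and 50.98 CPM in WT cells (-0.61 ± 0.10). In each of these genes the GIGYF1/2-null libraries lay below the other 4. PRKAR2B, a regulatory subunit of protein kinase A, changed by -0.59 ± 0.10. SLC12A9, of the cation-chloride cotransporter family, changed by -0.51 ± 0.13, and the secreted protein gene FAM3C by -0.59 ± 0.08. BRAF, the kinase that passes signals from RAS to MEK, was the exception with 11.1 and 12.9 CPM in GIGYF1/2-null cells, against 10.9 and 12.2 CPM in 4EHP-null cells and 9.76 and 10.4 CPM in WT cells. Its mRNA change was 0.25 ± 0.13, above 0 and not called, and its GIGYF1/2-null libraries overlapped those of 4EHP-null cells but lay above those of WT cells.

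Of the 10 adhesion and cytoskeleton genes, 7 were called lower, with a median of -0.57. TES, a LIM protein of focal adhesions, had 21.3 and 18.8 CPM in GIGYF1/2-null cells, against 37.1 and 39.9 CPM in 4EHP-null cells and 37.3 and 33.2 CPM in WT cells (-0.81 ± 0.11). CAV1, the main coat protein of caveolae, had 5.70 and 5.67 CPM in GIGYF1/2-null cells, against 11.8 and 12.6 CPM in 4EHP-null cells and 10.2 and 9.57 CPM in WT cells (-0.79 ± 0.13). TRIP6, a zyxin-family LIM protein, had 36.97 and 36.1 CPM in GIGYF1/2-null cells, against 85.4 and 79.7 CPM in 4EHP-null cells and 54.1 and 63.5 CPM in WT cells (-0.69 ± 0.10). In all of these, GIGYF1/2-null cells were lowest, and TRIP6 was also high in 4EHP-null cells. WASL, which activates the ARP2/3 complex, changed by -0.74 ± 0.13. The actin capping subunit gene CAPZA2 changed by -0.68 ± 0.09, and the actin-binding protein gene CALD1 by -0.46 ± 0.10. MTPN, whose product binds the capping protein, changed by -0.41 ± 0.08, and its counts are identical to those of LUZP6, a gene on the same transcript, so the 2 cannot be told apart. The other 3 genes were not called. ZYX, for the focal adhesion protein zyxin, had 68.3 and 65.8 CPM in GIGYF1/2-null cells, against 93.6 and 81.3 CPM in 4EHP-null cells and 66.7 and 73.6 CPM in WT cells (-0.07 ± 0.09). NRCAM, a neuronal cell adhesion molecule, had 9.15 and 8.19 CPM in GIGYF1/2-null cells, against 13.3 and 11.4 CPM in 4EHP-null cells and 9.66 and 8.55 CPM in WT cells (-0.07 ± 0.14). PODXL, a sialomucin of the cell surface, had 42.5 and 45.7 CPM in GIGYF1/2-null cells, against 52.8 and 50.7 CPM in 4EHP-null cells and 38.6 and 40.6 CPM in WT cells (0.16 ± 0.09). The 3 genes shared a pattern in which 4EHP-null libraries were highest while GIGYF1/2-null and WT libraries were close together.

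All 7 genes for RNA processing and RNA binding were called lower, with a median of -0.60. SND1, a Tudor-domain nuclease of RNA, had 75.4 and 57.7 CPM in GIGYF1/2-null cells, against 179 and 168 CPM in 4EHP-null cells and 161 and 148 CPM in WT cells, a log2 change of -1.21 ± 0.11. PUS7, a pseudouridine synthase, had 45.5 and 50.7 CPM in GIGYF1/2-null cells, against 77.8 and 81.6 CPM in 4EHP-null cells and 77.5 and 83.5 CPM in WT cells (-0.74 ± 0.09). LUC7L2, a factor of the U1 snRNP, had 158 and 146 CPM in GIGYF1/2-null cells, against 221 and 224 CPM in 4EHP-null cells and 240.0 and 236 CPM in WT cells (-0.65 ± 0.08), though part of its reads may belong to the overlapping C7orf55-LUC7L2 read-through gene. ZC3HAV1, an antiviral protein that binds CpG-rich RNA, had 53.4 and 34.6 CPM in GIGYF1/2-null cells, against 80.1 and 67.7 CPM in 4EHP-null cells and 76.7 and 56.98 CPM in WT cells. The 2 replicates of ZC3HAV1 lay far apart in GIGYF1/2-null and in WT cells, and its change of -0.60 ± 0.18 was not called without WT replicate 1, without GIGYF1/2-null replicate 2, in DESeq2 or with upper-quartile scaling. SRPK2, a kinase of splicing factors, changed by -0.58 ± 0.10. POP7, a subunit of RNase P and RNase MRP, changed by -0.49 ± 0.09, and SRRT, which works with the nuclear cap-binding complex, by -0.48 ± 0.11.

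Of the 8 genes for membrane traffic and the endoplasmic reticulum, 7 were called lower, with a median of -0.60. EXOC4, a subunit of the exocyst that tethers secretory vesicles, had 29.3 and 26.5 CPM in GIGYF1/2-null cells, against 47.2 and 51.4 CPM in 4EHP-null cells and 48.6 and 45.3 CPM in WT cells (-0.75 ± 0.10). COPG2, a coatomer subunit, had 30.3 and 26.8 CPM in GIGYF1/2-null cells, against 44.4 and 43.1 CPM in 4EHP-null cells and 42.6 and 46.03 CPM in WT cells (-0.64 ± 0.10). RINT1, a subunit of a tethering complex at the endoplasmic reticulum, changed by -0.62 ± 0.09. COG5, a subunit of a Golgi tether, changed by -0.55 ± 0.11 and overlaps HBP1, so that their reads may be split without strand. The calcium-binding protein gene CALU had 207 and 208 CPM in GIGYF1/2-null cells, against 287 and 309 CPM in 4EHP-null cells and 309.9 and 307 CPM in WT cells (-0.57 ± 0.08). BCAP29, of the endoplasmic reticulum membrane, changed by -0.68 ± 0.10, and the small GTPase gene ARF5 by -0.41 ± 0.08. MOSPD3, an endoplasmic reticulum protein with an MSP domain, had 7.06 and 6.26 CPM in GIGYF1/2-null cells, against 6.39 and 6.86 CPM in 4EHP-null cells and 6.61 and 8.66 CPM in WT cells and was not called (-0.20 ± 0.16).

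All 7 genes for metabolism and mitochondria were called lower, with a median of -0.55. NAMPT, which makes the precursor of NAD from nicotinamide, had 79.3 and 75.8 CPM in GIGYF1/2-null cells, against 126 and 134 CPM in 4EHP-null cells and 136 and 128 CPM in WT cells (-0.76 ± 0.08). AHCYL2, related to S-adenosylhomocysteine hydrolase, had 13.5 and 13.9 CPM in GIGYF1/2-null cells, against 28.3 and 26.9 CPM in 4EHP-null cells and 23.6 and 23.7 CPM in WT cells (-0.79 ± 0.10). DLD, the shared dehydrogenase subunit of the mitochondrial 2-oxoacid complexes, had 114 and 91.02 CPM in GIGYF1/2-null cells, against 158 and 163 CPM in 4EHP-null cells and 153 and 146 CPM in WT cells (-0.55 ± 0.10). All 3 were lower in both GIGYF1/2-null libraries than in the other 4. PMPCB, a subunit of the mitochondrial processing peptidase, changed by -0.61 ± 0.09. IMPDH1, an enzyme of guanine nucleotide synthesis, changed by -0.47 ± 0.08, and ARMC10 by -0.53 ± 0.10. AGK, a mitochondrial acylglycerol kinase, had the smallest change of the group at -0.34 ± 0.08.

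Among the 5 genes for ubiquitin ligases, proteases and other functions, 4 were called lower, with a median of -0.53. CUL1, the scaffold of SCF ubiquitin ligases, had 122 and 110.3 CPM in GIGYF1/2-null cells, against 176 and 179 CPM in 4EHP-null cells and 175 and 159.9 CPM in WT cells (-0.53 ± 0.08). UBE2H, a ubiquitin-conjugating enzyme, changed by -0.64 ± 0.11, and MKLN1, a subunit of the ligase that UBE2H serves, by -0.62 ± 0.11. CASP2, a caspase, changed by -0.46 ± 0.08. ST7, which overlaps antisense genes, had a log2 change of -0.35 ± 0.12 and was not called. The 4 genes for the nuclear pore, nuclear import and telomeres were all called lower, with a median of -0.56. NUP205, a scaffold protein of the pore, had 259 and 253 CPM in GIGYF1/2-null cells, against 323 and 347 CPM in 4EHP-null cells and 345 and 353 CPM in WT cells (-0.45 ± 0.08). POT1, which binds the single-stranded end of telomeres, had 18.2 and 16.02 CPM in GIGYF1/2-null cells, against 26.9 and 27.4 CPM in 4EHP-null cells and 33.4 and 27.7 CPM in WT cells (-0.83 ± 0.12). TNPO3, an import receptor of splicing factors, changed by -0.52 ± 0.09, and ZC3HC1, a protein of the nuclear basket, by -0.59 ± 0.09. The medians of the 8 role groups lay between -0.60 and -0.53, while single genes within each group spanned more than that.

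**Figure D2:**
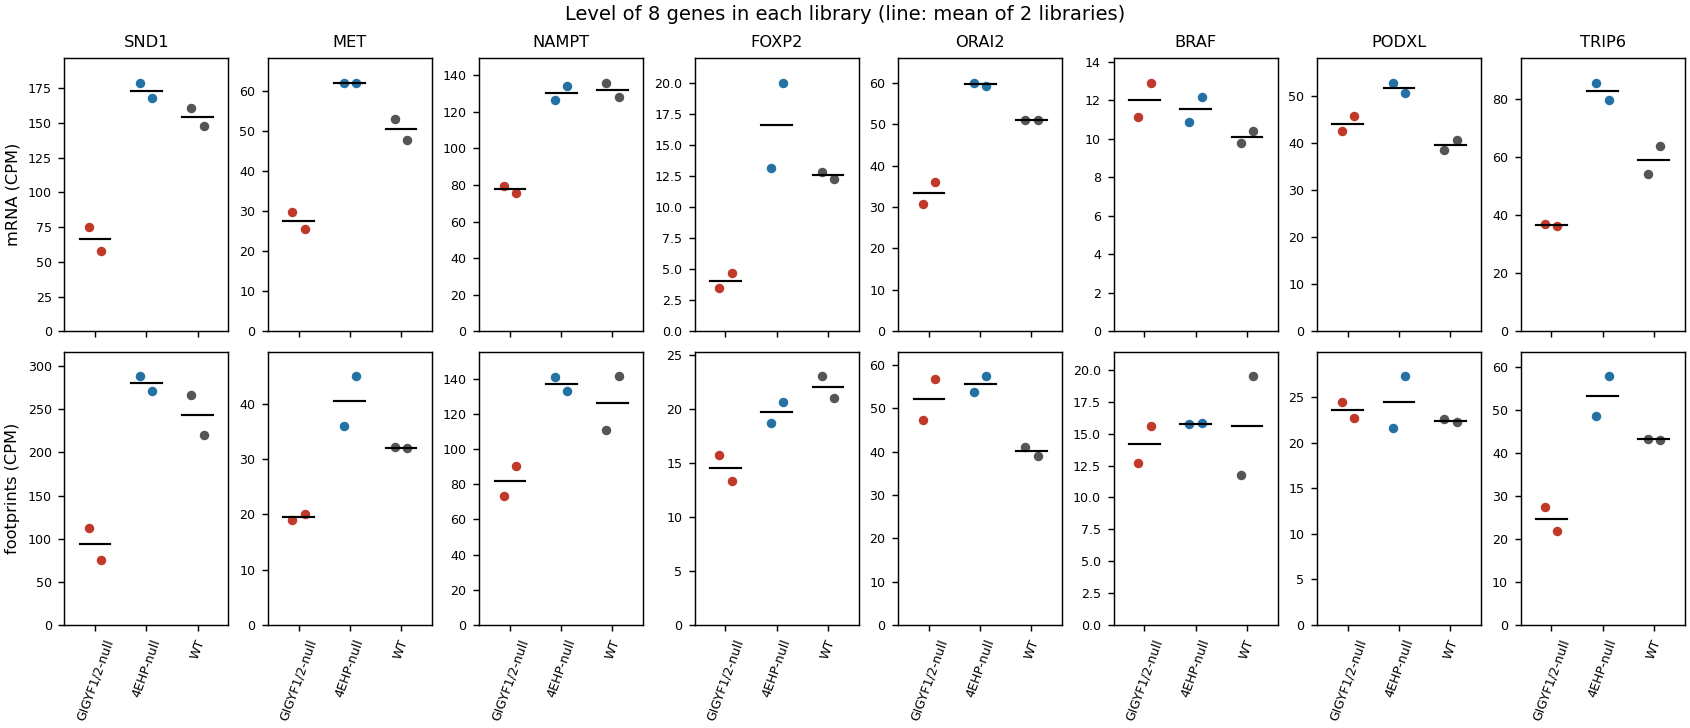
Levels of 8 of the genes in every library, in CPM, for mRNA (top) and ribosome footprints (bottom), with each point a library and each line the mean of 2. GIGYF1/2-null libraries were lowest in both assays for SND1, MET, NAMPT and TRIP6, ORAI2 was lowest in GIGYF1/2-null mRNA but not in footprints, and BRAF and PODXL were not lowest in GIGYF1/2-null mRNA.

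Ribosome footprints of the same genes were shifted by a similar amount. Their median log2 change between GIGYF1/2-null and WT cells was -0.59, or 66.6% of the WT level, and 58 of 60 were below 0, beside 49.6% of all tested genes. Both GIGYF1/2-null libraries lay below both WT libraries for 53 genes, beside 23.7% of all 14722 tested genes. Only 17 were called lower and 0 higher, beside 1.36% of tested genes called lower and 0.727% called higher. At an unadjusted p under 0.05, 51 were lower and 1 higher, beside 9.43% and 8.1% of tested genes. DESeq2 and limma-voom each called 19 lower and 0 higher. The count rested on single libraries and moved when 1 library was left out, as did the calls over all genes. The median log2 change of the 60 genes stayed between -0.60 and -0.56 in those fits. With no filter on low counts, 41 genes were called lower. The calls over all genes then also went up, with 683 lower, beside 200 with the filter. Each of the 17 genes was also called in mRNA.

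SND1 footprints had 113 and 75.01 CPM in GIGYF1/2-null cells, against 288 and 272 CPM in 4EHP-null cells and 267 and 221 CPM in WT cells, a log2 change of -1.38 ± 0.18. AHCYL2 footprints had 7.64 and 6.63 CPM in GIGYF1/2-null cells, against 11.8 and 11.2 CPM in 4EHP-null cells and 14.6 and 13.6 CPM in WT cells (-0.99 ± 0.18). DOCK4 footprints had 7.88 and 8.40 CPM in GIGYF1/2-null cells, against 15.6 and 16.4 CPM in 4EHP-null cells and 16.2 and 15.1 CPM in WT cells (-0.94 ± 0.17). These 3 genes had the lowest footprint changes of the list, and their GIGYF1/2-null libraries lay below all others. Footprints of TRIM24, the nuclear receptor cofactor, had 45.1 and 48.6 CPM in GIGYF1/2-null cells, against 80.5 and 79.6 CPM in 4EHP-null cells and 78.5 and 83.4 CPM in WT cells (-0.79 ± 0.13), and those of the pseudouridine synthase PUS7 had 42.9 and 48.8 CPM in GIGYF1/2-null cells, against 68.8 and 65.9 CPM in 4EHP-null cells and 78.2 and 81.9 CPM in WT cells (-0.80 ± 0.13). The peptidase subunit PMPCB had footprints of 88.9 and 90.6 CPM in GIGYF1/2-null cells, against 175 and 165 CPM in 4EHP-null cells and 137 and 149 CPM in WT cells (-0.67 ± 0.13). In CUL1, the ligase scaffold, they were 111 and 114 CPM in GIGYF1/2-null cells, against 177 and 165 CPM in 4EHP-null cells and 176 and 181 CPM in WT cells (-0.67 ± 0.12). Again GIGYF1/2-null libraries were the lowest in each gene. BRAF footprints had 12.7 and 15.6 CPM in GIGYF1/2-null cells, against 15.7 and 15.8 CPM in 4EHP-null cells and 11.7 and 19.5 CPM in WT cells, with the 2 WT libraries on either side of the others (-0.16 ± 0.22). PODXL footprints had 24.5 and 22.7 CPM in GIGYF1/2-null cells, narrowly above the 22.6 and 22.2 CPM in WT cells (0.07 ± 0.16). The 4EHP-null libraries, at 21.6 and 27.3 CPM, lay on either side of all others.

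Translation efficiency (TE), the footprint change minus the mRNA change, was centred near 0 in the list. Its median between GIGYF1/2-null and WT cells was -0.01, as was that of all 13257 genes tested, with 29 genes above 0 and 31 below, beside 52.9% of all tested genes below. It lay within 0.2 of 0 for 44 genes and within 0.3 for 55, while the median SE of a single gene's TE was 0.179. ORAI2 was called higher and 0 were called lower, beside 0.0377% of tested genes called higher and 0.00754% called lower. At an unadjusted p under 0.05, 2 genes were higher and 1 lower, beside 2.39% and 1.9% of tested genes. Neither DESeq2 nor limma-voom was run for TE.

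**Figure D3:**
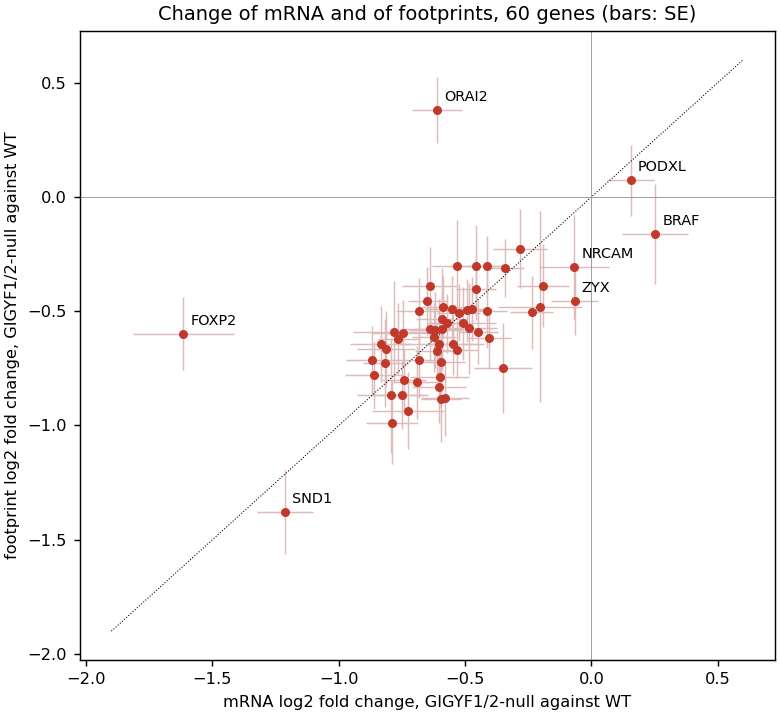
Log2 change of mRNA (horizontal) and of ribosome footprints (vertical) between GIGYF1/2-null and WT cells for the 60 genes, with bars of 1 SE and a dotted line where both are equal. Most genes lie near the line around -0.6, ORAI2 lies above 0 in footprints, FOXP2 lies far left of the line and SND1 is low in both.

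BRAF mRNA lay above WT and its footprints below (0.25 ± 0.13 and -0.16 ± 0.22), and neither change was called. Among the genes called lower in mRNA, only ORAI2 had footprints that went the other way. Its footprints had 47.3 and 56.8 CPM in GIGYF1/2-null cells, against 53.7 and 57.4 CPM in 4EHP-null cells and 41.00 and 39.1 CPM in WT cells. Both GIGYF1/2-null libraries were above both WT libraries and close to those of 4EHP-null cells, although their mRNA was the lowest. The change was 0.38 ± 0.14 in footprints, against -0.61 ± 0.10 in mRNA, which gives a TE change of 1.01 ± 0.16. The call was lost when only GIGYF1/2-null and WT libraries were fitted and in 11 of the 12 fits that left out a library, while the change itself stayed between 0.86 and 1.13. ORAI2 overlaps ALKBH4 in the annotation, and the part of such reads was not tested. FOXP2 footprints had 15.8 and 13.4 CPM in GIGYF1/2-null cells, against 18.7 and 20.7 CPM in 4EHP-null cells and 23.04 and 21.00 CPM in WT cells. Its mRNA was further below WT than its footprints, with changes of -1.62 ± 0.20 and -0.60 ± 0.16, and the TE change of 1.03 ± 0.28 was as large as that of ORAI2 with a wider error and was not called against WT. Against 4EHP-null cells the FOXP2 TE change was 1.55 ± 0.28, the single gene of the list called there. In that contrast 0.0453% of tested genes were called higher and 0.136% lower, with 0 of the list lower. The TE fit against 4EHP-null cells was not repeated with other settings or left-out libraries. Across the 60 genes the mRNA and footprint changes had a Pearson correlation of 0.57 and a Spearman correlation of 0.64, and 0.76 and 0.68 without FOXP2 and ORAI2. These genes share the same libraries, and the values are a description.

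Set against 4EHP-null cells, in a contrast that shares the GIGYF1/2-null libraries with the one above, 54 genes were called lower in GIGYF1/2-null mRNA and 0 higher, beside 13% and 11.4% of tested genes. The median log2 change was -0.61. At an unadjusted p under 0.05, 58 were lower and 0 higher, beside 18.9% and 18% of tested genes, and DESeq2 and limma-voom called 53 and 55 lower and 0 higher. The 6 genes not called were TSC22D4, MOSPD3, NRF1, PODXL, MTPN and BRAF. In footprints 30 genes were called lower and 0 higher, beside 6.8% and 3.98% of tested genes, with a median of -0.57. There were 44 lower and 0 higher at an unadjusted p under 0.05, beside 13.8% and 12% of tested genes, and DESeq2 and limma-voom called 27 and 30 lower and 0 higher. The footprint count was lower when either 4EHP-null library was left out, and so was the count over all genes. In mRNA, 50 genes were called lower against both 4EHP-null and WT cells. Both contrasts share the GIGYF1/2-null libraries that chose the list, so this count only describes the list. The share of all tested genes called lower in both was not counted.

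The contrast of 4EHP-null with WT cells was not used to choose the genes, but it shares the WT libraries with the one that was. In mRNA the median log2 change of the 60 genes between 4EHP-null and WT cells was 0.06, beside 0.00 for all tested genes. There were 3 genes (5%) called higher and 1 (1.67%) called lower, beside 6.47% of tested genes called higher and 6.63% called lower. The count fell without any one of the WT or 4EHP-null libraries and rose without either GIGYF1/2-null library. The count over all genes moved the same way. With no filter on low counts 7 of the 60 were called, with 1429 higher and 1478 lower over all genes. With only the 2 genotypes fitted 8 were called, with 1282 higher and 1258 lower over all genes. TRIP6 mRNA had 85.4 and 79.7 CPM in 4EHP-null cells, against 54.1 and 63.5 CPM in WT cells. It rose by 0.49 ± 0.09 on the log2 scale (edgeR's quasi-likelihood test, adjusted p = 0.0054), and both 4EHP-null libraries lay above both WT libraries. PODXL mRNA had 52.8 and 50.7 CPM in 4EHP-null cells, against 38.6 and 40.6 CPM in WT cells, a rise of 0.39 ± 0.09 (edgeR adjusted p = 0.018). ZYX mRNA had 93.6 and 81.3 CPM in 4EHP-null cells, against 66.7 and 73.6 CPM in WT cells, a rise of 0.32 ± 0.09 (edgeR adjusted p = 0.04). TRIP6 and ZYX are both zyxin-family LIM proteins of focal adhesions. FAM3C mRNA had 89.6 and 88.9 CPM in 4EHP-null cells, against 114 and 110.2 CPM in WT cells, a change of -0.33 ± 0.08 (edgeR adjusted p = 0.019). The groups did not overlap in any of the 4 genes. These were named because they were called, so the separation adds no support, and its share over all genes was not counted. The calls of PODXL, ZYX and FAM3C were lost without any one of the 4 libraries compared, with adjusted p up to 0.14, 0.33 and 0.13 in edgeR. The TRIP6 call was lost without WT replicate 1 or 4EHP-null replicate 1, with an adjusted p up to 0.092 in edgeR.

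NRCAM mRNA was also high in both 4EHP-null libraries relative to WT, at 0.44 ± 0.14, but was not called (edgeR adjusted p = 0.053). FOXP2 mRNA had 13.2 and 20.04 CPM in 4EHP-null cells, against 12.9 and 12.3 CPM in WT cells, so that only the second 4EHP-null library stood clearly above WT (0.39 ± 0.18, edgeR adjusted p = 0.18). In footprints 0 of the 60 genes were called between 4EHP-null and WT cells by edgeR, DESeq2 and limma-voom, beside 1.58% of tested genes called higher and 1.46% called lower in edgeR. At an unadjusted p under 0.05, 2 were higher and 2 lower, beside 9.12% and 9.94% of tested genes, and the median change was -0.02. In TE, 0 were called by edgeR, beside 0.0905% of tested genes called higher and 0.00754% called lower. There were 0 higher and 2 lower at an unadjusted p under 0.05, beside 3.23% and 3.96% of tested genes.

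The lower level was not limited to the listed genes. Along chromosome 7, 635 protein-coding genes were tested in mRNA and could be ordered by their RefSeq position, and the segment from TSC22D4 to PAXIP1 spans positions 389 to 620 of that order. The 172 other genes within it had a median log2 change of -0.49 between GIGYF1/2-null and WT mRNA, with 90 called lower and 2 higher (52.3% called lower). The 388 genes before the segment had a median of -0.24, with 97 called lower (25%), and the nearest 50 of them had a median of -0.30. The 15 genes beyond it had a median of -0.44, with 9 called lower. On the other chromosomes the median of 13013 genes was 0.01, with 5.79% called lower. The list was chosen within the segment for low values, so the difference from its other genes is not tested.

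**Figure D4:**
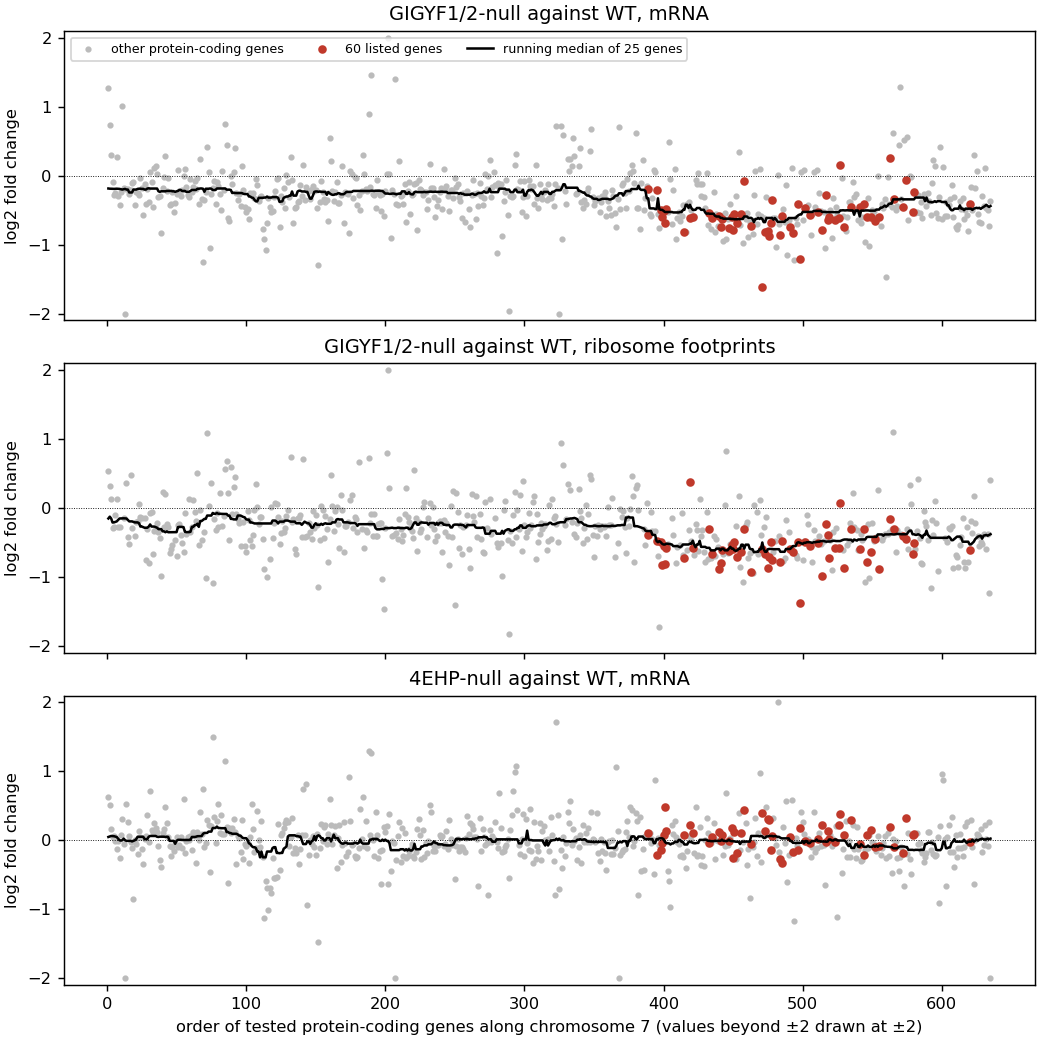
Log2 change of each tested protein-coding gene along chromosome 7, in RefSeq order, for GIGYF1/2-null against WT mRNA (top) and footprints (middle) and for 4EHP-null against WT mRNA (bottom); red points are the 60 genes and the line is a running median of 25 genes. In GIGYF1/2-null cells the line lies below 0 along most of the chromosome and steps down where the listed genes begin. The line includes the listed genes, which were chosen for low values. In 4EHP-null mRNA, medians of 20 successive genes lay between -0.14 and 0.06 from GPC2 on. Before the segment, the median from CCDC126 to HOXA9 was -0.21.

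Footprints followed the same course, with medians of -0.59 in the 60 genes, -0.42 in 139 others of the segment, -0.24 in 350 genes before it and -0.38 in 13 beyond it. In successive windows of 20 genes, the mRNA median was -0.47 in the window from GPC2 to SLC12A9, which holds the first 5 listed genes and GIGYF1, and -0.21 in the window just before it, from ZKSCAN5 to GAL3ST4. The lowest windows were PUS7 to THAP5 (-0.62), DNAJB9 to LSM8 (-0.64) and ANKRD7 to RBM28 (-0.66). They hold 22 of the 60 genes, among them MET, FOXP2 and SND1. The window medians include the listed genes, which were chosen for low values, so the rank of the windows is a description. The window ADCK2 to EZH2, which holds BRAF, AGK, CASP2, ZYX, CUL1 and EZH2, was higher at -0.15 in mRNA but at -0.35 in footprints. In 4EHP-null cells the mRNA medians of the 13 windows between GPC2 and VIPR2 lay between -0.14 and 0.06. The lowest 4EHP-null window of the chromosome was CCDC126 to HOXA9, before the segment, at -0.21.

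Genes next to the ends of the segment were mixed. Of the 5 tested genes before TSC22D4, MEPCE, a methylase of the 7SK RNA cap, was called lower in GIGYF1/2-null mRNA (-0.33 ± 0.09, edgeR adjusted p = 0.031), and SPDYE3, PILRB, ZCWPW1 and PPP1R35 were not called, with changes between -0.50 and 0.23. Of the 5 beyond PAXIP1, the homeobox gene EN2 was called lower (-0.50 ± 0.09, edgeR adjusted p = 0.0025). INSIG1, CNPY1, RBM33 and RNF32 were not called, with changes between -0.18 and 0.30. Within the segment, the lowest and highest other genes were picked by their values and are described without a test. The lowest at an average log2 CPM of at least 2 was ZC3HAV1L, a neighbour of ZC3HAV1, with 9.72 and 9.97 CPM in GIGYF1/2-null cells, against 20.6 and 21.6 CPM in 4EHP-null cells and 19.2 and 20.8 CPM in WT cells (-1.03 ± 0.11). LAMB1, a laminin chain, had 25.7 and 28.7 CPM in GIGYF1/2-null cells, against 50.3 and 55.2 CPM in 4EHP-null cells and 52.7 and 54.4 CPM in WT cells (-0.98 ± 0.10), and CREB3L2, a membrane-bound transcription factor, had 42.8 and 40.5 CPM in GIGYF1/2-null cells, against 70.9 and 75.5 CPM in 4EHP-null cells and 84.01 and 78.3 CPM in WT cells (-0.96 ± 0.09). EFCAB10 (-0.94 ± 0.18) and the collagen-modifying enzyme gene PLOD3 (-0.92 ± 0.11) followed. The mean mRNA levels of ZC3HAV1L, LAMB1 and CREB3L2 in GIGYF1/2-null cells were 49.2%, 50.8% and 51.3% of those in WT cells. At the other end, TMEM178B had 28.6 and 25.3 CPM in GIGYF1/2-null cells, against 19.04 and 16.5 CPM in 4EHP-null cells and 19.6 and 15.6 CPM in WT cells (0.62 ± 0.13). LRRC61, PRRT4, FLNC and POLR2J3 had log2 changes between 0.04 and 0.14.

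Many of the 60 proteins work in complexes whose other subunits are encoded elsewhere, and a list of 127 such partners and close paralogues was examined, 122 of them off chromosome 7. Of the 121 tested in mRNA, 4 were called lower and 2 higher in GIGYF1/2-null than in WT cells, beside 6.75% and 5.2% of all tested genes, and 115 were not called. The counts were 14 lower and 3 higher without GIGYF1/2-null replicate 1, with 1192 and 627 over all genes, and 11 lower and 3 higher with no filter on low counts, with 1498 and 1117 over all genes. Their median log2 change was -0.02, beside -0.59 in the listed genes, and the difference was not tested. COG3, a partner of COG5 in the Golgi tether, had 20.99 and 22.02 CPM in GIGYF1/2-null cells, against 33.98 and 35.7 CPM in 4EHP-null cells and 35.5 and 31.9 CPM in WT cells (-0.65 ± 0.11, edgeR adjusted p = 0.002). COG6, of the same complex, had 24.2 and 20.99 CPM in GIGYF1/2-null cells, against 31.1 and 36.8 CPM in 4EHP-null cells and 31.8 and 28.9 CPM in WT cells (-0.42 ± 0.12, edgeR adjusted p = 0.041). Both genes lie on chromosome 13, which had the lowest median of all chromosomes at -0.54. ORC1, an origin recognition subunit that LRWD1 accompanies, had 25.6 and 22.5 CPM in GIGYF1/2-null cells, against 42.2 and 41.00 CPM in 4EHP-null cells and 38.5 and 35.9 CPM in WT cells (-0.63 ± 0.11, edgeR adjusted p = 0.0023).

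COPG1, the paralogue of COPG2, had 74.01 and 70.2 CPM in GIGYF1/2-null cells, against 106 and 106 CPM in 4EHP-null cells and 86.8 and 97.9 CPM in WT cells (-0.36 ± 0.08, edgeR adjusted p = 0.016). TERF1, a shelterin protein that acts with POT1 at telomeres, had 111 and 107 CPM in GIGYF1/2-null cells, against 80.96 and 82.2 CPM in 4EHP-null cells and 80.2 and 74.6 CPM in WT cells, a rise of 0.50 ± 0.08 (edgeR adjusted p = 0.0015). RPP25, a partner of POP7 in RNase P, had 82.8 and 96.1 CPM in GIGYF1/2-null cells, against 92.3 and 91.2 CPM in 4EHP-null cells and 57.04 and 67.4 CPM in WT cells, a rise of 0.52 ± 0.10 (edgeR adjusted p = 0.0049). In all 6 partners the GIGYF1/2-null and WT libraries did not overlap, but they were named because they were called, so this adds no support. Both GIGYF1/2-null libraries lay below both WT libraries in 26.2% of all tested genes. In edgeR, the COG6 call was lost without either WT library, without GIGYF1/2-null replicate 2 and with upper-quartile scaling (adjusted p up to 0.22), that of COPG1 without WT replicate 2 or GIGYF1/2-null replicate 2 (up to 0.16) and that of RPP25 without WT replicate 1 (up to 0.080). In footprints COG3, COG6 and ORC1 were called lower and 0 of 120 partners higher, beside 1.36% and 0.727% of all tested genes. DESeq2 and limma-voom also called 0 higher. With only the 2 genotypes fitted, 0 partners were called in footprints, with 108 lower and 66 higher over all genes. The footprint calls of partners also moved when 1 library was left out. The 27 paralogues off chromosome 7, such as those of COPG2, had a median of 0.01 in mRNA, with 1 called lower and 0 higher. The 5 partners on chromosome 7, which are OGDH, TRRAP, KMT2C, ORC5 and CAV2, had a median of -0.47, and all but CAV2 were called lower.

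In the authors' deposited table for GIGYF1/2-null against WT mRNA, 59 of the 60 genes are listed with a median log2 change of -0.58, and 51 have an adjusted p under 0.05 with a lower level, beside 9.81% of all genes listed. The authors' deposited table of footprints lists 58 of the genes with a median of -0.55, and 32 are lower, beside 3.57% of all genes listed. The authors' deposited TE table lists 57 with a median of 0.03, 0 of them lower and 2 higher, beside 0.0811% and 0.0709% of all genes listed. For 4EHP-null against WT mRNA, the authors' values have 1 listed gene lower and 6 higher, beside 10.1% and 9.82% of all genes. In footprints they have 0 lower and 1 higher, beside 2.57% and 3.45%. In TE they have 0 lower and 0 higher, beside 0.274% and 0.233%.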

How the data were processed

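Total RNA and ribosome footprints of HEK293T cells were sequenced in 12 libraries. The deposited count tables give unnormalized whole reads for each gene, per the file headers and values. Bowtie2, TopHat2, edgeR and build hg19 are named in the submitters' processing notes without versions; how reads were counted, with which annotation and strand, is not given in these sources, and overlapping genes (18 of the 60 overlap another tested gene) are uncertain. The authors also deposited tables of log2 fold changes with p-values.

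Counts were filtered with filterByExpr, scaled by TMM and tested with edgeR 4.0.16 in R 4.3.3 (quasi-likelihood F-test, two-sided, Benjamini-Hochberg adjusted p under 0.05 over all genes tested). The 6 libraries of an assay were fitted together with no replicate term, and the SE is the log2 change divided by the square root of F. TE was the interaction of assay and genotype over all 12 libraries. limma 3.58.1 (voom) and DESeq2 1.42.0, other scalings, filters, a replicate term and left-out libraries were alternatives. Steps were tested on simulated data. Gene order, names and promoters came from RefSeq GRCh38.p14, which placed 25568 genes (94.7%) by symbol; hg19 coordinates were not used.

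The genes, the partner list and the rule for named genes were chosen with earlier results of these data known. The text names the 60 genes, the edited genes, each partner called in mRNA, the 5 lowest and 5 highest other genes of the segment (average log2 CPM of at least 2) and the 5 genes next to each end. Replicate libraries differed by more than counting noise.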

Additional observations from a re-analysis of the deposited data

How the results depend on the processing

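Of the 51 mRNA calls in GIGYF1/2-null against WT cells, 38 were made under all 15 alternatives. Single left-out libraries ended the calls of EPHB4, SLC12A9, SRRT, ARMC10, HBP1, COG5, ARF5, CALD1, MTPN, TRIM24, ZC3HAV1, AGK and PAXIP1, and DESeq2 and upper-quartile scaling that of ZC3HAV1. No called gene changed sign. Leaving out 1 library at a time gave 42 to 51 calls in mRNA with a median between -0.66 and -0.54, and 1 to 22 calls in footprints with a median between -0.60 and -0.56. It gave 44 to 52 and 9 to 30 calls against 4EHP-null mRNA and footprints, 0 to 7 for 4EHP-null against WT mRNA, 0 throughout in its footprints and TE, 0 to 1 in GIGYF1/2-null TE and 4 to 17 among the partners. Calls over all genes also moved with the library left out. With no filter on low counts the footprint calls were 41, those of 4EHP-null mRNA 7 and those of partners 14. With only the 2 genotypes compared, these were 11 in footprints, 8 in 4EHP-null mRNA and 0 in TE. Upper-quartile scaling gave a footprint median of -0.52 and put the median of all genes at most at 0.09, in footprints against 4EHP-null cells, beside 0.03 with TMM. TMM factors from genes outside chromosome 7, chosen after seeing the data, changed none of the counts by over 1.5 times.

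Libraries with the same replicate number deviated together (correlations between 0.12 and 0.34 over genes), but the labels do not say that a number marks a shared batch or day, and each genotype has only 2 numbers, so the calls reported come from fits without a replicate term. With the replicate block, calls were 54 in mRNA and 47 in footprints (46 lower, 1 higher), 10 in 4EHP-null mRNA, 1 in 4EHP-null footprints, 58 and 44 against 4EHP-null mRNA and footprints, 1 in TE and 25 among partners (17 lower, 8 higher). Calls over all genes also went up with the block, to 1774 lower and 1450 higher in GIGYF1/2-null against WT mRNA, beside 1055 and 813 without it, and to 1115 and 632 in footprints, beside 200 and 107. With 2 libraries a group and Ribo-seq totals of at most 10816080 counts, a single gene's SE was 0.0991 in mRNA and 0.159 in footprints at the median. The causes of these differences were not tested.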

Other observations

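Chromosome 13 stood beside chromosome 7 in GIGYF1/2-null cells. The median log2 change of its 241 tested protein-coding genes against WT was -0.54 in mRNA and -0.52 in footprints, near the -0.59 of the 60 listed genes. Chromosome 7 as a whole had medians of -0.31 and -0.31, and the next lowest, chromosome 6, had -0.03 in mRNA. In 4EHP-null cells, chromosomes 7 and 13 had mRNA medians of -0.02 and 0.06 against WT. The lowest chromosomes there were 10, with -0.27 in mRNA and -0.27 in footprints, and 15, with -0.16 and -0.14. None of the listed genes lies on these chromosomes, and the chromosomes were named after their values were seen.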
